A study of Rattus norvegicus with 48 samples.

Results

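The cadherins and protocadherins described here are the 31 genes whose symbol begins with Cdh and a number or with Pcdh and whose probe set on the array carries that symbol alone. They were taken from 27342 probe sets, 15097 of which have 1 symbol, and each of the 31 genes has 1 such probe set. They comprise 3 type I cadherins (Cdh1, Cdh2, Cdh15), 8 type II cadherins (Cdh5, Cdh6, Cdh7, Cdh8, Cdh10, Cdh19, Cdh20, Cdh22), 4 other cadherins (Cdh13, Cdh16, Cdh17, Cdh23), 3 delta-1 protocadherins (Pcdh1, Pcdh7, Pcdh11x), 3 delta-2 protocadherins (Pcdh8, Pcdh17, Pcdh18), Pcdh20, and 9 protocadherins of the clustered beta family (Pcdhb2, 3, 4, 5, 6, 8, 12, 20 and 21). Cdh4, Cdh9, Cdh11, Cdh12, Cdh18, Pcdh9, Pcdh10, Pcdh15 and Pcdh19 are not analysed here.

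Whole-transcript arrays were hybridised with RNA from 4 brain areas of male Sprague-Dawley rats aged 120 days. The areas were the basolateral amygdala (BLA), the primary and secondary motor cortex (CRTX) and the hippocampal fields CA1 and CA3, each taken as 2 mm punches, with the RNA of 4 rats in each pool. All rats were of the F3 generation: the vinclozolin lineage (Vin) descends from dams dosed with this anti-androgenic fungicide at 100 mg/kg/day between embryonic days 8 and 14, and that of the controls (Con) from dams that received the DMSO vehicle. Stressed rats (St) were restrained for 6 h a day over 21 days, from postnatal day 23 to day 43, and non-stressed rats (NSt) were not, which gives the groups St-Vin, St-Con, NSt-Vin and NSt-Con with 3 pools each. A Vin and a Con rat shared a cage throughout, so a control rat also lived with a vinclozolin-lineage rat, and the same 12 pools supplied all areas. In CRTX NSt-Vin and in CA1 St-Con 1 array equals the mean of the others of its group on all probe sets, so 46 of 48 arrays were used (BLA 12, CRTX 11, CA1 11, CA3 12).

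Cadherins are calcium-dependent adhesion proteins of the cell surface. The type I and type II molecules bind their like on the neighbouring cell and are tied to the actin skeleton by catenins, and in the brain different regions and circuits express different combinations of them. Protocadherins form a larger branch of the superfamily without the classical catenin-binding tail. The genes of the clustered alpha, beta and gamma families lie side by side, single neurons use different sets of them, and the proteins serve the self-recognition of neurites.

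The 9 beta genes are shown first, because they lie in one cluster on chromosome 18 and yet differed in the area where each was highest. The longest run of letters that the promoter windows of all 9 share is GGTGGCGCTG, which lies before the start of each. The stretches are printed from RefSeq (assembly GRCr8, plus strand, 5′ to 3′) with these letters in capitals and 15 bases on each side.
Pcdhb2, chr18:29279918-29279957: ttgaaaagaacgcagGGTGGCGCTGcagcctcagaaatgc
Pcdhb3, chr18:29285599-29285638: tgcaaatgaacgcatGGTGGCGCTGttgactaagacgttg
Pcdhb4, chr18:29292206-29292245: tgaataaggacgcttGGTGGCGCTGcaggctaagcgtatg
Pcdhb5, chr18:29302399-29302438: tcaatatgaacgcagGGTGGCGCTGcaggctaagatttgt
Pcdhb6, chr18:29320147-29320186: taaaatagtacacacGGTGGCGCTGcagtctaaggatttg
Pcdhb8, chr18:29339253-29339292: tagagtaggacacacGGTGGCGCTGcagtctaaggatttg
Pcdhb12, chr18:29413643-29413682: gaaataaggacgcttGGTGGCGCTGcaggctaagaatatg
Pcdhb20, chr18:29485805-29485844: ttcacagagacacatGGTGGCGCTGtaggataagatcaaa
Pcdhb21, chr18:29492144-29492183: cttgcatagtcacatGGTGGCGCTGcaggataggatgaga

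The motif lay 52 to 229 bases before the annotated start. It was derived from these windows, which run from 250 bases before to 50 after the start, so its presence in all 9 is given by the choice. It was searched on both strands. It occurs in 9 of 9 beta members and in 0 of the 16 other members with a promoter in the table, and 6 members have no entry there. Of all 33469 promoters 74 hold it (0.221%), among them 15 of 19 beta genes, 0 of 15 gamma genes and 0 of 1 alpha gene. The shared letters are a description of the sequence and were not tied to any measurement.

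The deposited log2 values differ in scale between areas, with mean array medians of 7.1 in BLA, 6.78 in CRTX, 7.13 in CA1 and 7.37 in CA3. For the comparison of areas every array was therefore shifted to a median of 7.102, and all levels by area below are shifted log2 signals, while levels by group within an area are log2 signals as deposited. The areas were also scanned on different days, apart from BLA and part of CRTX, so for the other pairs the area and the day of scanning cannot be told apart. RNA was prepared on one date for BLA and CRTX and on another for CA1 and CA3, so a difference of a hippocampal field from BLA or CRTX cannot be told apart from the preparation date either. On the values as deposited every difference from the mean of the other areas moves by the same amount for all genes, by -0.42 in CRTX, 0.36 in CA3, 0.05 in CA1 and 0.01 in BLA; quantile normalization over all arrays was a further scaling. As a check of the labels, the 7 measured basolateral amygdala markers averaged 8.66 in BLA (median over arrays) against 7.96 to 8.09 elsewhere, and the 11 measured CA3 markers averaged 8.31 in CA3, 8.17 in CA1, 7.65 in CRTX and 7.59 in BLA. The 4 measured CA1 markers went against the label, with a median of 8.55 in CA1 and 8.87 in CA3, and only 3 of 10 cortical markers were measured, which did not set CRTX apart. In BLA a list of 13 striatal markers ranged from 7.50 to 9.84 between arrays, and 5 arrays carried choroid plexus transcripts 0.68 to 2.11 above their area mean. These were replicate 3 of BLA St-Vin, replicate 1 of CRTX NSt-Con, replicates 2 and 3 of CA1 NSt-Con and replicate 3 of CA3 NSt-Con. All but the BLA array thus belonged to NSt-Con. That group is the reference for stress in the control lineage and for lineage without stress. In tissue punches, fewer cells of a type and less RNA per cell cannot be told apart.

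The members differed widely between areas. A limma F test called 31 of 31 members different between areas, in a background where 96.5% of all probe sets were called, so the calls say little and the sizes matter more. The median absolute difference between BLA and CRTX was 0.35 over the members and 0.24 over all probe sets, and that between CA1 and CA3 was 0.17 over the members and 0.13 over all probe sets. The highest area was BLA for 6 members, CRTX for 14, CA1 for 4 and CA3 for 7. That count depends on the scaling: with the values as deposited it was 6, 8, 2 and 15, and with quantile normalization 8, 13, 3 and 7. The shares of all probe sets by highest area are not given here. At the median shift 53.1% of them were called higher in CRTX than in the mean of the other areas. The count is thus no result particular to the members. The 6 pairs of areas gave 22 to 27 members past the adjusted threshold. Between CRTX and CA1, 21 members were higher and 6 lower in CRTX, beside 40.9% and 24.7% of all probe sets, and between CRTX and CA3, 17 were higher and 5 lower, beside 49.8% and 25.7%. On the values as deposited these splits are 9 and 18, and 5 and 22. Between BLA and CA1, 14 were higher and 13 lower in BLA, beside 23.7% and 51.3%, and between BLA and CA3, 12 were higher and 15 lower, beside 30.2% and 45.9%; on the values as deposited the last is 7 and 20. Differences of at least 2-fold past the threshold were rare: Cdh7 (3.53-fold) and Pcdhb2 (2.01-fold) were higher in CRTX than in CA1, beside 0.870% of all probe sets, and Cdh7 (by 1.96 on the log2 scale) and Pcdh7 (2.29-fold) were higher in CRTX than in CA3, beside 1.67%. Cdh19 was 2.07-fold lower in BLA than in CA1, beside 1.01%, and Cdh7 was 2.16-fold higher in BLA than in CA3, beside 1.19%. On the values as deposited Cdh7 in CRTX against CA1 and CA3 (log2 differences of 1.47 and 1.37) and Cdh19 in BLA against CA1 (-1.08) stay past 2-fold, and Pcdhb2 (0.65), Pcdh7 (0.61) and Cdh7 in BLA (0.85) do not.

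For 21 of the 31 members the highest area was the same under all 3 scalings, namely BLA for 5, CRTX for 8, CA1 for 2 and CA3 for 6. The share of all probe sets for which this holds is not given here. The count rests on the order of the means. At the median shift the highest area did not exceed the second past the limma threshold for some of the 21 members. These were Pcdhb5 (0.04, adjusted p = 0.391), Cdh5 (0.03, adjusted p = 0.372), Cdh2 (0.07, adjusted p = 0.135) and Cdh8 (0.14, adjusted p = 0.0708).

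**Figure D1:**
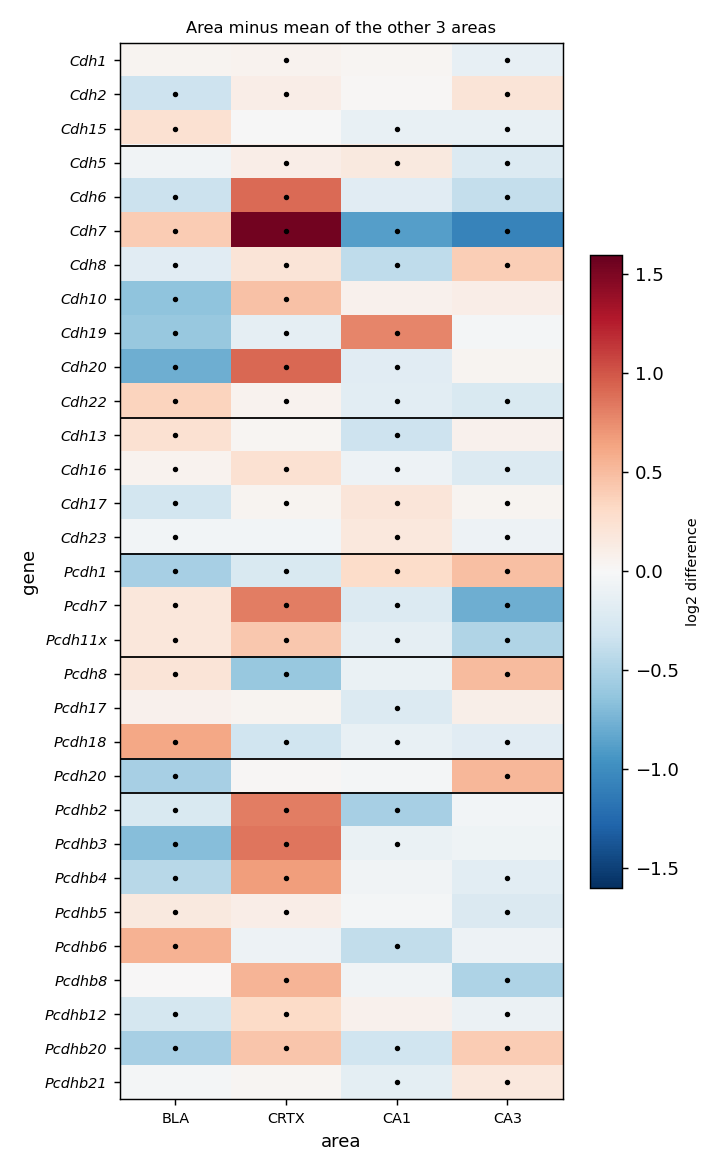
Log2 difference, on median-shifted values, of each area (columns) from the mean of the other 3 areas for the 31 members (rows, in the order type I, type II and other cadherins, delta-1, delta-2 and other protocadherins, clustered beta; lines separate these groups). Red is higher in the area, blue lower, and a dot marks an adjusted p below 0.05; Cdh7 spans the widest range, from 1.54 in CRTX to -1.07 in CA3.

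In motor cortex the 6 largest positive differences belonged to the type II cadherins Cdh7, Cdh20 and Cdh6, to the beta protocadherins Pcdhb3 and Pcdhb2 and to Pcdh7, and all 6 stayed positive and past the threshold under the 3 scalings. Against the mean of the other areas 20 members were higher and 4 lower in CRTX, where 53.1% and 23.3% of all probe sets were called in these directions. That split is 8 higher and 20 lower on the values as deposited and 13 higher and 8 lower after quantile normalization, and none of the 6 highest and 4 lowest members in CRTX changed direction. Of the 8 type II cadherins 7 were higher and 1 lower (Cdh19, -0.15 ± 0.06), although 3 of the 7 (Cdh5, Cdh8, Cdh22) turn lower on the values as deposited and Cdh10 is then at 0.05 (adjusted p = 0.485). The Cdh19 call has an adjusted p of 0.0233 and is lost without the pool block, without the choroid-rich arrays, in either stress group alone and without the first NSt-Con pool (adjusted p = 0.0517 to 0.102). At least 2-fold differences past the threshold were found for 1 member, Cdh7, beside 0.940% of all probe sets.

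Cdh7, a type II cadherin known from neural tube and brain subdivisions, had levels of 7.79 to 8.78 in CRTX (median 8.44), against 7.02 to 8.00 in BLA (median 7.53), 6.15 to 7.18 in CA1 (median 6.44) and 6.21 to 6.72 in CA3 (median 6.50). Only the lowest CRTX arrays overlapped BLA, and no CRTX array overlapped the hippocampal ones. The difference of CRTX from the other areas was 1.54 ± 0.11 (SE; 2.92-fold, adjusted p = 2.26e-15), and BLA stood above CA3 by 1.11 ± 0.12 (adjusted p = 4.85e-10). CA1 and CA3 did not differ beyond their spread, at 0.14 ± 0.13 (adjusted p = 0.336).

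Cdh20, another type II cadherin, had levels of 8.44 to 8.71 in CRTX (median 8.59), against 7.01 to 7.49 in BLA, 7.49 to 8.09 in CA1 and 7.68 to 8.04 in CA3. Every CRTX array lay above every array of the other areas, also after quantile normalization but not on the values as deposited (8.14 to 8.41 in CRTX, up to 8.32 elsewhere), and the BLA arrays did not exceed the lowest CA1 array. CRTX exceeded the mean of the others by 0.92 ± 0.04 (adjusted p = 3e-21), while BLA was lower than the mean of the others by -0.78 ± 0.04 (adjusted p = 7.43e-20). Cdh7 and Cdh19 are next to each other among the coding genes of chromosome 13, and Cdh20 lies elsewhere on it; of these 3 genes Cdh7 and Cdh20 were highest in CRTX and Cdh19 in CA1.

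Cdh6 was tight in CRTX, at 8.67 to 8.94, and wide in BLA, at 7.12 to 8.52, and in CA1, at 6.99 to 8.74, so that single CA1 arrays reached the cortical level. The CRTX difference was 0.90 ± 0.12 (adjusted p = 1.24e-08). On the deposited scale the 6 highest BLA arrays of Cdh6, 8.12 to 8.50, were the 6 in which the striatal list was highest (9.36 to 9.83), and the 6 lowest, 7.14 to 7.76, had that list at 7.52 to 8.13. Whether striatal tissue in the punch sets the Cdh6 level there was not tested.

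Pcdh7, a delta-1 protocadherin, had levels of 9.20 to 9.42 in CRTX, 8.62 to 9.05 in BLA, 7.94 to 8.96 in CA1 and 7.98 to 8.16 in CA3. All CRTX arrays were above all others, which holds neither on the values as deposited nor after quantile normalization, and the 4 areas followed the order CRTX, BLA, CA1, CA3 with each step past the threshold (0.47, 0.31 and 0.42). Pcdh11x, an X-linked delta-1 protocadherin, had the same order, with a CRTX difference of 0.44 ± 0.03 (adjusted p = 4.95e-15) that is 0.01 on the values as deposited (adjusted p = 0.655), where BLA is above CRTX by 0.13 (adjusted p = 0.00141), and a CA3 difference of -0.48 ± 0.03 (adjusted p = 2.26e-16). The remaining delta-1 gene, Pcdh1, was the other way round, highest in CA3 (0.48 ± 0.05, adjusted p = 2.1e-11) and lower than the mean of the others in BLA (-0.53 ± 0.05, adjusted p = 8.64e-13) and in CRTX (-0.24 ± 0.05). BLA was below CRTX by -0.22 ± 0.06, but above it by 0.11 on the values as deposited and by 0.04 after quantile normalization, so which of the 2 areas is lowest depends on the scaling.

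The delta-2 protocadherin Pcdh8, also called arcadlin and induced by neuronal activity, was lowest in CRTX. Its levels were 7.08 to 7.49 in CRTX, against 7.67 to 8.30 in BLA, 7.58 to 8.11 in CA1 and 7.90 to 8.57 in CA3. No CRTX array reached another area under any of the 3 scalings, and the difference was -0.60 ± 0.06 (adjusted p = 7.14e-11). Pcdh18, of the same subfamily, was likewise lowest in CRTX, at -0.32 ± 0.04 (adjusted p = 5.65e-09).

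**Figure D2:**
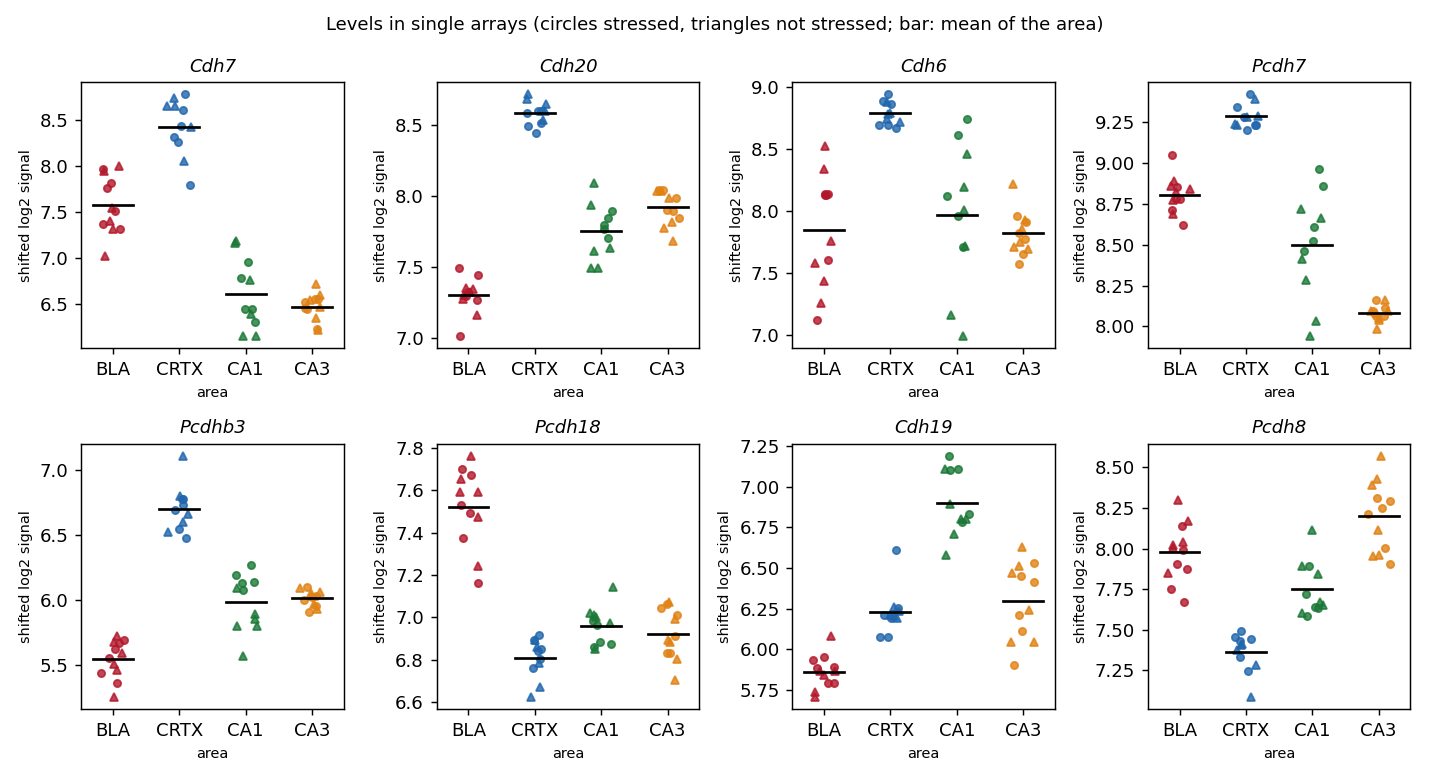
Shifted log2 signal (vertical axes) of 8 members in every array used, by area (horizontal axes); circles are stressed pools, triangles non-stressed pools, and bars area means. At this scaling all CRTX arrays of Cdh20, Pcdh7 and Pcdhb3 lie above those of the other areas (not on the values as deposited), Pcdh18 is highest in BLA, Cdh19 in CA1, and Pcdh8 is lowest in CRTX.

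Among the 9 beta protocadherins 7 were higher in CRTX than in the mean of the other areas and 0 lower. Their median difference was 0.44 beside 0.09 over all probe sets, and both medians move by -0.42 on the values as deposited. On that scale Pcdhb5 and Pcdhb12 are lower in CRTX instead. Pcdhb6 and Pcdhb21, which were not called at the median shift, then have their lowest area mean in CRTX (7.02 and 7.26). Pcdhb3 had 6.48 to 7.11 in CRTX (median 6.69), against 5.25 to 5.72 in BLA, 5.57 to 6.27 in CA1 and 5.91 to 6.10 in CA3. CRTX did not overlap the rest, and the difference was 0.86 ± 0.05 (adjusted p = 4.31e-18). Its neighbour Pcdhb2 did not overlap either, with 6.34 to 6.78 in CRTX against at most 6.09 elsewhere and a difference of 0.81 ± 0.04 (adjusted p = 6.7e-20). On the values as deposited both genes overlap, with differences of 0.44 for Pcdhb3 and 0.39 for Pcdhb2, and CRTX no longer exceeds CA3 past the threshold (0.10 and 0.06).

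Following the gene order, the CRTX difference was 0.81 at Pcdhb2, 0.86 at Pcdhb3 and 0.67 at Pcdhb4, then 0.11 at Pcdhb5 and -0.08 at Pcdhb6 (adjusted p = 0.091), and again 0.55 at Pcdhb8, 0.31 at Pcdhb12 and 0.44 at Pcdhb20. On the values as deposited Pcdhb5 (-0.32) and Pcdhb12 (-0.12) turn lower in CRTX and Pcdhb20 is at 0.02 (adjusted p = 0.613). Pcdhb2 to Pcdhb6 are consecutive genes. Pcdhb6 was highest in BLA, at 7.53 to 8.06 (median 7.85), against 7.18 to 7.51 in CRTX, 6.92 to 7.35 in CA1 and 7.18 to 7.62 in CA3, a difference of 0.56 ± 0.04 (adjusted p = 4.57e-14). Pcdhb20 had medians of 7.30 in CRTX and 7.28 in CA3 and was lower in BLA (median 6.57) and CA1 (median 6.73). Pcdhb21 varied little between areas at the median shift, by 0.24 from the highest to the lowest mean. On the values as deposited its area means ran from 7.26 in CRTX to 7.95 in CA3.

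Probe sets that carry several symbols were not members and are given for comparison. The one for 2 beta genes was also higher in CRTX, by 0.74 ± 0.04 (adjusted p = 9.66e-18; 0.32 on the values as deposited). The one for 15 alpha symbols was higher in CRTX by 0.26 ± 0.02 (adjusted p = 3.62e-12), but lower by -0.16 on the values as deposited (adjusted p = 3.2e-08), and lower in CA1 by -0.20 ± 0.02. The one for 13 gamma symbols was highest in CA3, by 0.14 ± 0.02 (adjusted p = 1.38e-06), with CRTX at -0.10 ± 0.02.

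**Figure D3:**
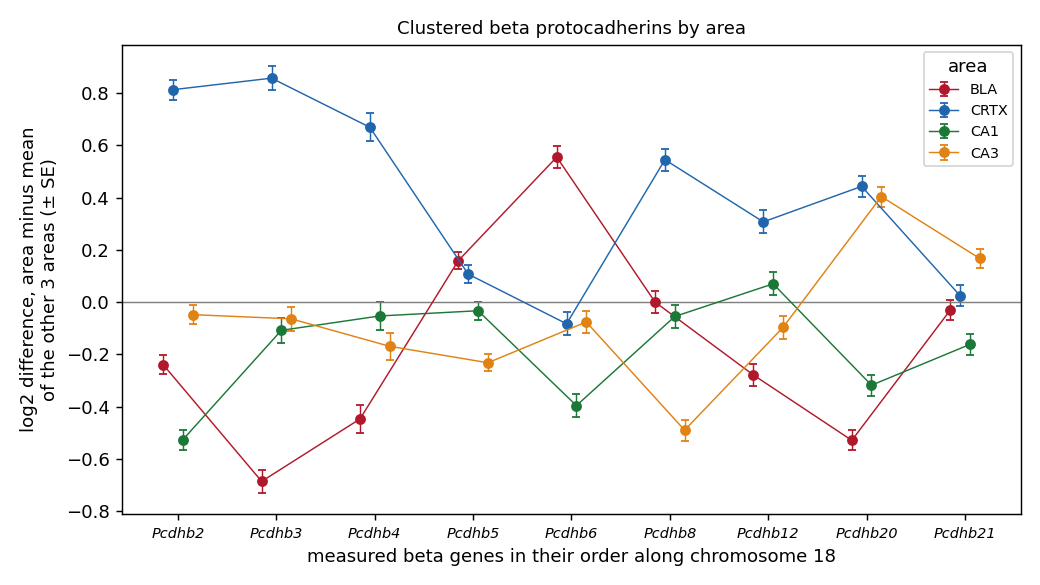
Log2 difference of each area from the mean of the other 3 areas (vertical axis, ± SE) for the 9 beta protocadherins in their order along chromosome 18 (horizontal axis, genes evenly spaced). The CRTX line is high at Pcdhb2, Pcdhb3 and Pcdhb4 and at Pcdhb8, and the BLA line is highest at Pcdhb6. On the values as deposited the CRTX points of Pcdhb5, Pcdhb6, Pcdhb12 and Pcdhb21 lie below 0.

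In the basolateral amygdala 11 members were higher and 15 lower than in the mean of the other areas, beside 24.8% and 54.8% of all probe sets; the split is 12 and 14 on the values as deposited and 13 and 12 after quantile normalization. Pcdh18 led, with 7.16 to 7.76 in BLA (median 7.56), against 6.62 to 6.92 in CRTX, 6.85 to 7.14 in CA1 and 6.70 to 7.07 in CA3. No array of another area reached BLA, also after quantile normalization but not on the values as deposited, and the difference was 0.62 ± 0.04 (adjusted p = 1.34e-16). Cdh22, a type II cadherin also called PB-cadherin, was separated too in the same 2 scalings, but at the median shift narrowly, with a lowest BLA array of 7.97 beside a highest other array of 7.96 and a difference of 0.35 ± 0.03 (adjusted p = 8.2e-15). Cdh13, the GPI-anchored T-cadherin, was higher by 0.24 ± 0.06 (adjusted p = 0.00043) and Cdh15, known as the muscle cadherin, by 0.24 ± 0.03 (adjusted p = 2.18e-09). Cdh7 was above the mean of the others by 0.41 ± 0.10 (adjusted p = 0.000443), a call that is lost in the non-stressed pools alone (0.33, adjusted p = 0.0632).

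The members lowest in BLA were Cdh20 and Pcdhb3, given above, with Pcdhb3 at -0.69 ± 0.04 (adjusted p = 5.21e-16), followed by Cdh10 at -0.64 ± 0.06 (adjusted p = 1.9e-11) and Cdh19 at -0.61 ± 0.06 (adjusted p = 3.11e-12). Cdh10, a type II cadherin of neurons, had 8.26 to 9.06 in BLA against 9.36 to 9.61 in CRTX, which do not overlap at the median shift. N-cadherin (Cdh2), the main type I cadherin of synapses, was also lower in BLA, by -0.33 ± 0.04 (adjusted p = 2.01e-10). Cdh17, the liver-intestine cadherin, lay below all other areas in every BLA array at the median shift, with a highest BLA array of 4.96 and a lowest other array of 5.01. This holds in neither other scaling, and on the values as deposited Cdh17 is above CRTX in BLA by 0.07 (adjusted p = 0.0105).

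BLA and CRTX are the only pair that shares a scan day, in 4 pools, all of them non-stressed. Over all pools 6 members were higher and 20 lower in BLA, beside 22.9% and 56.6% of all probe sets, and the split is 15 and 10 on the values as deposited and 10 and 15 after quantile normalization. Cdh20 was lower by -1.27 ± 0.05 over all pools and by -1.36 ± 0.05 within the shared scan day, and Pcdhb3 by -1.16 ± 0.06 and -1.20 ± 0.08; they are the 2 members past the 2-fold mark, beside 1.63% of all probe sets, and neither reaches it on the values as deposited (-0.95 and -0.83). Cdh6 (-0.94 and -0.81), Cdh7 (-0.85 and -0.84) and Pcdhb4 (-0.84 and -0.91) followed. On the other side Pcdh18 was higher in BLA by 0.71 over all pools and 0.78 within the scan day, Pcdh8 by 0.61 and 0.79, Pcdhb6 by 0.48 and 0.44, Cdh22 by 0.22 and 0.26, and Cdh15 by 0.19 and 0.16. The differences of these 10 genes were of like size where the scan day is held fixed. All 10 passed the threshold there, among 23 members that did. The share of all probe sets that passed in these 4 pools is not given here, so this count says little. These pools are also part of the full comparison, so the 2 sets of values are not independent.

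In CA1 5 members were higher and 16 lower than in the mean of the other areas, beside 36.3% and 23.5% of all probe sets, with 7 higher and 13 lower on the values as deposited. Cdh19, a type II cadherin known from glial lineages, had 6.58 to 7.19 in CA1 (median 6.83), against 5.70 to 6.08 in BLA (median 5.86), 6.07 to 6.61 in CRTX (median 6.21) and 5.90 to 6.63 in CA3 (median 6.33). Only the lowest CA1 arrays met the highest of CRTX and CA3, and the difference was 0.79 ± 0.06 (adjusted p = 6.71e-14). The 11 measured oligodendrocyte markers followed the same order of areas, with medians of 10.37 in CA1, 10.08 in CA3, 9.89 in CRTX and 9.35 in BLA, and their part in the Cdh19 difference was not tested.

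The endothelial cadherin Cdh5 was higher in CA1 by 0.16 ± 0.03 (adjusted p = 4.92e-06) and lower in CA3 by -0.21 ± 0.03, but higher in CA3 by 0.15 on the values as deposited (adjusted p = 2.36e-06), whereas the 8 measured endothelial markers had medians of 7.46 in CA1, 7.51 in CA3, 7.59 in CRTX and 7.43 in BLA, another order. Pcdh1 (0.30 ± 0.05), Cdh17 (0.20 ± 0.02) and Cdh23 (0.17 ± 0.02), the last known from the tip links of hair cells, were the other members higher in CA1. Cdh7 (-0.88 ± 0.11), Pcdhb2 (-0.53 ± 0.04), Cdh8 (-0.41 ± 0.06) and Pcdhb6 (-0.40 ± 0.04) were the lowest there.

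In CA3 8 members were higher and 15 lower, beside 32.0% and 39.7% of all probe sets; the split is 26 and 4 on the values as deposited and 8 and 13 after quantile normalization. Pcdh20, a non-clustered protocadherin, had 9.04 to 9.49 in CA3 (median 9.33), against 7.87 to 9.05 in BLA, 8.83 to 9.12 in CRTX and 8.23 to 9.51 in CA1. CA3 overlapped BLA and CRTX only at their highest arrays and CA1 widely, and the difference was 0.53 ± 0.09 (adjusted p = 2.75e-06). Pcdh8 was higher by 0.50 ± 0.06, Pcdhb20 by 0.40 ± 0.04, Cdh8 by 0.39 ± 0.06 and Cdh2 by 0.20 ± 0.04, all past the threshold. Besides Cdh7, the lowest were Pcdh7 at -0.78 ± 0.05 and Pcdhb8 at -0.49 ± 0.04.

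CA1 and CA3 are neighbouring fields of one structure and had the smallest median difference of the 6 pairs over the members. Of the members 11 were higher in CA1 and 12 lower, beside 37.0% and 24.8% of all probe sets, none by 2-fold (0.113% of all probe sets). On the values as deposited the split is 2 and 21. Cdh19 was higher in CA1 by 0.61 ± 0.07, Pcdh7 by 0.42 ± 0.07, Pcdhb8 by 0.33 ± 0.05, Cdh5 by 0.28 ± 0.03 and Pcdh11x by 0.25 ± 0.04; for Pcdhb8, Cdh5 and Pcdh11x the call is lost on the values as deposited (0.09, 0.04 and 0.02). Cdh8, a type II cadherin found at synapses, had 8.73 to 9.91 in CA1 (median 9.36) and 9.66 to 10.21 in CA3 (median 9.94), lower in CA1 by -0.60 ± 0.07 (adjusted p = 3.39e-09). Pcdhb20 (-0.54 ± 0.05), Pcdh8 (-0.46 ± 0.07), Pcdh20 (-0.42 ± 0.11) and Pcdhb2 (-0.36 ± 0.05) were also lower in CA1; for Pcdh20 the call is lost in the non-stressed pools alone (-0.20, adjusted p = 0.209).

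A few members were nearly level across areas at the median shift. Among those above the median level of all probe sets the smallest distance between the highest and the lowest area mean was 0.22 for Pcdh17, a delta-2 protocadherin, followed by Pcdhb21 (0.24), Pcdhb5 (0.29), Cdh2 (0.40) and Cdh13 (0.41). Cdh1 and Cdh16, known from epithelia and kidney, had low levels throughout, with means of 5.44 to 5.58 and 5.48 to 5.82, and 8 members in all were below the 30th percentile of probe sets.

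Of the catenins and other cadherin partners 19 of 28 listed genes were measured. In CRTX 9 were higher and 7 lower than in the mean of the other areas, beside 53.1% and 23.3% of all probe sets. Their median difference was 0.11, beside 0.09 over all probe sets. The split is 4 and 14 on the values as deposited and 6 and 8 after quantile normalization. Ctnna2, the neuronal alpha-catenin, was higher in CRTX by 0.73 ± 0.04 (adjusted p = 3.39e-17) and lower in BLA by -0.60 ± 0.04 (adjusted p = 2.61e-15). The delta-catenin Ctnnd2 differed by 0.23 ± 0.05 in CRTX, which turns to -0.20 on the values as deposited, and by -0.31 ± 0.05 in BLA. Beta-catenin (Ctnnb1) was lower in BLA by -0.25 ± 0.03, a difference of 0.01 after quantile normalization (adjusted p = 0.796), and did not pass in CRTX (-0.02 ± 0.03, adjusted p = 0.521). In BLA 3 of the 19 were higher and 11 lower, beside 24.8% and 54.8% of all probe sets, with 5 and 6 after quantile normalization. Of the wider cadherin superfamily 14 of 25 listed genes were measured. Beside the same shares of all probe sets, 8 were higher and 5 lower in CRTX, and 5 higher and 7 lower in BLA. The CRTX split is 0 and 12 on the values as deposited and 5 and 6 after quantile normalization. The BLA split is 5 and 4 after quantile normalization. In BLA the calsyntenin Clstn2 was lower by -1.41 ± 0.07 (adjusted p = 1.3e-18).

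Lineage and stress were then compared within each area, on the values as deposited. No member passed the adjusted threshold of limma in any of 7 comparisons in each of the 4 areas, or in the 3 comparisons on each pool's mean over its 4 areas, beside a background of 0% in nearly all of them. The exceptions are stress in the control lineage of CRTX (0.636% of all probe sets), the CRTX stress average (0.00731%) and stress in the vinclozolin lineage of CA1 (0.505%). Each pool holds other rats, and the p-values rest on how far these pools of a group differ. They leave out the pairing of Vin and Con cage mates. Fits with the dyad group as a block called Cdh6, Pcdh20 and Cdh8 in CA1, as given below. At an unadjusted p below 0.05, 7 of 31 members passed for stress in the vinclozolin lineage of CA1, beside 19.3% of all probe sets, 5 for the same comparison in CA3, beside 14.0%, and 3 for stress in the control lineage of CRTX, beside 18.3%. Stress in the control lineage of BLA gave 2 members, beside 3.10%, that of CA1 gave 1, beside 3.25%, and that of CA3 gave 1, beside 3.57%. Stress in the vinclozolin lineage gave 0 members in BLA, beside 2.02%, and 0 in CRTX, beside 3.13%. Lineage without stress gave 2 members in BLA, 0 in CRTX, 1 in CA1 and 1 in CA3, beside 2.09%, 5.68%, 3.28% and 5.38% of all probe sets. Lineage with stress gave 1, 0, 1 and 1 members in the same order of areas, beside 2.58%, 6.04%, 4.97% and 4.18%. These counts lie near the background.

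**Figure D4:**
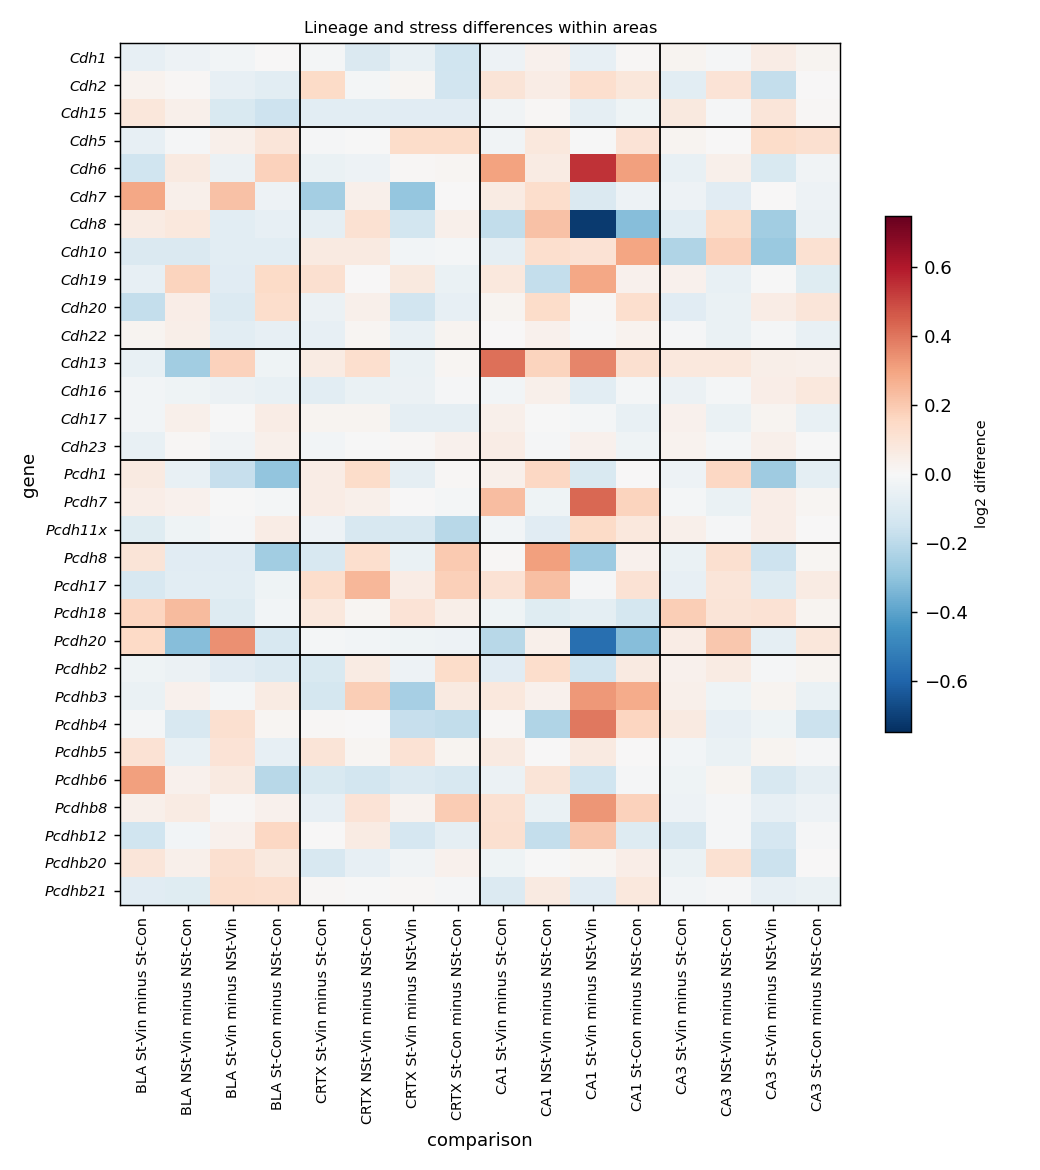
Log2 difference of the 31 members (rows, grouped as in the plot by area) for lineage and stress within each area (columns, 4 per area; red is higher in the first-named group). Most cells are pale, CA1 St-Vin minus NSt-Vin holds the deepest colours, and no cell passed the adjusted threshold in the fit without a block.

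Cdh8 in CA1 came closest. Its log2 signals were 8.95, 8.76 and 9.33 in St-Vin pools, 9.22 and 9.17 in St-Con pools, 9.62, 9.63 and 9.95 in NSt-Vin pools, and 9.46, 9.41 and 9.67 in NSt-Con pools. All stressed pools were below all non-stressed ones. The stress difference was -0.72 ± 0.14 in the vinclozolin lineage (adjusted p = 0.0534) and -0.32 ± 0.16 in the control lineage (adjusted p = 0.996), and the interaction, -0.40 ± 0.21, did not pass (adjusted p = 0.965). With the dyad group as a random effect in limma the vinclozolin-lineage value is -0.72 (adjusted p = 0.0495). In another limma fit, with the dyad group as a fixed block, the interaction is -0.56 (adjusted p = 0.0464). For the interaction only 2 stressed dyad groups were measured in both lineages. Without the third St-Vin pool the vinclozolin-lineage difference is -0.88 (adjusted p = 0.0241).

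The CA1 punches also differed in hippocampal subfield markers along with Cdh8. The CA3 marker list averaged 7.52, 7.66 and 8.24 in St-Vin, 8.20 and 8.10 in St-Con, 8.21, 8.40 and 8.74 in NSt-Vin, and 8.18, 8.32 and 8.84 in NSt-Con pools, and Cdh8 is itself higher in CA3 than in CA1. The dentate marker list averaged 7.02, 6.98 and 7.82 in St-Vin against 7.53, 7.75 and 8.36 in NSt-Vin pools. The CA1 marker list ran the other way, at 8.89, 9.11 and 8.44 in St-Vin against 8.62, 8.80 and 8.05 in NSt-Vin pools. The St-Vin arrays were the only CA1 arrays used from their scan day, so for this lineage the stress and the day of scanning cannot be told apart, and the part of the markers in the Cdh8 difference was not tested.

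**Figure D5:**
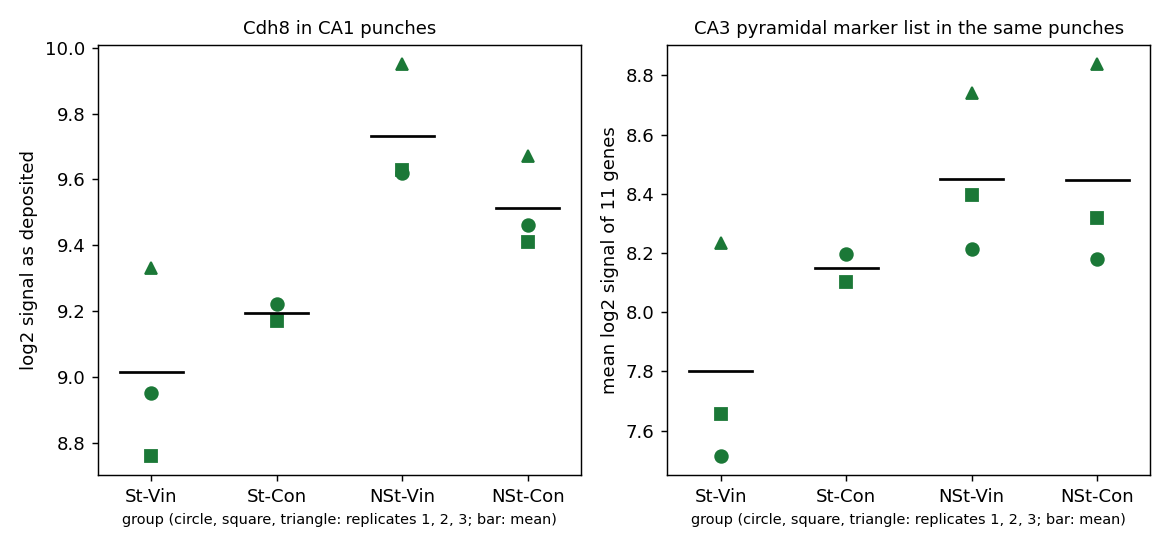
Cdh8 (left, log2 signal as deposited) and the mean of 11 CA3 pyramidal markers (right, log2) in the same CA1 pools by group; each symbol is a pool and bars are group means. Cdh8 lies at 8.76 to 9.33 in St-Vin pools against 9.62 to 9.95 in NSt-Vin pools, and the marker mean at 7.52 to 8.24 against 8.21 to 8.74.

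Other members of CA1 moved less. Pcdhb3 had 6.28, 6.22 and 6.15 in St-Vin, 6.11 and 6.16 in St-Con, 6.16, 5.90 and 5.61 in NSt-Vin, and 5.87, 5.85 and 5.85 in NSt-Con pools. Its stress average was 0.30 ± 0.08 (adjusted p = 0.14), and 1 NSt-Vin pool lay among the stressed ones. Pcdh8 had 7.96, 7.85 and 8.15 in NSt-Vin pools against 7.69, 7.70 and 7.65 in NSt-Con pools, which do not overlap, and the lineage difference without stress was 0.31 ± 0.09 (adjusted p = 0.993). With stress the lineage difference of Pcdh8 was 0.01 ± 0.10. Groups did not overlap for 4 members higher and 3 lower under stress in the vinclozolin lineage, beside 25.2% of all probe sets. Cdh13 had a lineage average of 0.29 ± 0.12 (adjusted p = 0.994).

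In BLA the smallest p among members belonged to Pcdhb6, at 7.84, 8.05 and 7.93 in St-Vin pools against 7.60, 7.75 and 7.54 in St-Con pools. These did not overlap, and the lineage difference with stress was 0.31 ± 0.09 (adjusted p = 1.0). It had no counterpart without stress, at 0.03 ± 0.09, although the interaction did not pass (0.28 ± 0.13, adjusted p = 1.0). Cdh19 was 6.06, 5.86 and 5.87 in NSt-Vin pools and 5.84, 5.72 and 5.73 in NSt-Con pools (0.17 ± 0.07, adjusted p = 1.0; 0.10 without the first NSt-Vin pool). Pcdh1 had a stress average of -0.24 ± 0.08 (adjusted p = 0.996). The striatal marker list had group means of 9.09 in St-Con and 8.83 in St-Vin, against 8.39 in NSt-Con and 8.36 in NSt-Vin pools of BLA. Its part in the Pcdh1 value was not tested.

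In CRTX Pcdh11x had 6.07, 6.14 and 6.23 in St-Vin, 6.09, 6.26 and 6.20 in St-Con, 6.26 and 6.28 in NSt-Vin, and 6.34, 6.44 and 6.39 in NSt-Con pools. The stressed pools lay at or below the lowest non-stressed pool, and the stress average was -0.17 ± 0.05 (adjusted p = 0.156). Stressed and control-lineage non-stressed CRTX pools were scanned on different days, so in that lineage the stress and the day of scanning cannot be told apart. Pcdhb8 was higher with stress in the control lineage by 0.19 ± 0.07 (adjusted p = 0.176), and Pcdhb6 had a lineage average of -0.12 ± 0.05 (adjusted p = 0.845).

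In CA3, where all arrays share a scan day, Cdh5 had 6.29, 6.23 and 6.19 in St-Vin, 6.14, 6.23 and 6.28 in St-Con, 6.09, 6.10 and 6.11 in NSt-Vin, and 6.10, 6.12 and 6.07 in NSt-Con pools. The stressed pools were above the non-stressed ones in both lineages, and the stress average was 0.13 ± 0.03 (adjusted p = 0.424). Pcdh1 had 10.03, 10.03 and 9.72 in St-Vin against 10.33, 10.11 and 10.14 in NSt-Vin pools, a difference of -0.27 ± 0.08 (adjusted p = 0.25) that is -0.16 without the third St-Vin pool. Pcdh18 had a lineage average of 0.14 ± 0.05 (adjusted p = 0.997). Pcdh20 had a lineage difference without stress of 0.20 ± 0.08 (adjusted p = 0.845, and 0.11 without the first NSt-Con pool). Cdh10 had an interaction of -0.40 ± 0.16 (adjusted p = 0.752). The CA3 punches also differed in the striatal marker list. It averaged 7.495 to 8.828 in NSt-Con and 7.435 to 8.353 in NSt-Vin pools, against 7.441 to 7.481 in St-Con and 7.462 to 7.760 in St-Vin pools. Its part in the stress differences of CA3 was not tested.

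Over the mean of the 4 areas of 10 pools, Cdh8 had the stress average with the smallest p, -0.19 ± 0.04 (adjusted p = 0.456), followed by Pcdh1 at -0.12 ± 0.03 (adjusted p = 0.475). Within single areas the Cdh8 stress average was -0.52 in CA1, -0.15 in CA3, -0.07 in BLA and -0.05 in CRTX, so CA1 carries most of the mean. Pcdh18 had the lineage average with the smallest p, 0.12 ± 0.04 (adjusted p = 1.0). At an unadjusted p below 0.05, 5 members passed for the stress average, beside 8.27% of all probe sets, 1 for the lineage average, beside 2.97%, and 2 for the interaction, beside 4.57%. Whether an effect differs between areas was tested by limma F tests, which called 0 members for lineage (3 at an unadjusted p below 0.05, beside 5.16% of all probe sets) and 0 for stress (6 unadjusted, beside 17.8%), where 0.801% of all probe sets were called. The smallest adjusted p for stress were 0.0594 for Pcdhb3, 0.0684 for Pcdh11x and 0.0901 for Cdh8. Among the partners, plakoglobin (Jup), which links cadherins at junctions, passed the stress F test (adjusted p = 0.0485). Stress is partly mixed with the day of scanning in CRTX and CA1 but not in BLA and CA3. A stress effect that differs between areas therefore cannot be told apart from the day in this test.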

How the data were processed

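The authors deposited log2 signals; per the submitters' processing notes Partek and RMA (background correction, normalization and summary per probe set) were used, with versions and genome build not given in the sources used here. Whether areas were normalized together is not stated. Symbols come from the platform annotation, which can be old; all 31 members matched RefSeq (GRCr8) by gene number and 0 symbols changed. Of the 27342 probe sets 323 have several symbols and 11922 none, and these were tested but not named. Precision is limited by the number of arrays, which have no depth.

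Areas were compared with limma 3.58.1 (R 4.3.3, statmod 1.5.0) on median-shifted values with the pool as a block, and lineage and stress within areas on the deposited values with 4 groups and no block. Benjamini-Hochberg adjustment covered every probe set (threshold 0.05); SE comes from the fit. Copies were sought with a tolerance of 0.0051. The fits were tested on simulated data. Members, gene lists and named genes (largest differences per area past the threshold, smallest p for lineage and stress, smallest spread) were chosen with earlier results of these data known.

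Vin and Con pools are paired by the labels (cage mates). Deviations of paired pools correlated above 0.1 in 6 of 6 pairs in BLA, 3 of 5 in CRTX, 5 of 5 in CA1 and 5 of 6 in CA3. Alternatives were the scaling, a filter at the 30th percentile, trend and robust moderation, all 48 arrays, arrays without choroid plexus, scan day, blocks and leaving out pools. Within areas the replicate block was the dyad group, fixed for lineage and interaction and a random effect for the stress comparisons.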

Additional observations from a re-analysis of the deposited data

Results flagged for a closer look

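In 3 members the St-Vin and NSt-Vin pools did not overlap in 2 areas, with opposite directions. Cdh15 was higher in St-Vin than in NSt-Vin pools of CA3, by 0.09, and lower in CRTX, by -0.083. Pcdh11x was higher in CA1, by 0.143, and lower in CRTX, by -0.123. Pcdhb20 was higher in BLA, by 0.123, and lower in CA3, by -0.16. Of all probe sets 6.18% did not overlap in this comparison in BLA, 13.2% in CRTX, 25.2% in CA1 and 18.0% in CA3. The share that did not overlap in 2 areas with opposite directions is not given here, so the count of 3 members says little. The difference between the 2 areas was not tested within this lineage; over both lineages limma's F test of whether the stress effect differs between areas gave adjusted p = 0.343 for Cdh15, 0.0684 for Pcdh11x and 0.576 for Pcdhb20. None of the 6 values passed the adjusted threshold within its area, CRTX NSt-Vin has 2 pools, and in CA1 stress in this lineage cannot be told apart from the scan day. Over both lineages stress is also partly mixed with the scan day in CRTX.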

How the results depend on the processing

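Of the differences chosen for naming by size or p, none changed direction under an alternative; other member differences do turn with the scaling between areas, 9 of 24 called in CRTX and 10 of 23 called in CA3 on the values as deposited. On that scale the split into higher and lower members moves from 20 and 4 to 8 and 20 in CRTX. In CA3 it moves from 8 and 15 to 26 and 4. Of 646 counts of members called in either direction, 639 stayed within 1.5 times under an alternative, and all others concern CA1. The main counts for lineage and stress are all 0 and that of the F test over areas is 31 of 31, so this stability says little. For stress in the vinclozolin lineage of CA1, 1 member instead of 0 passed with all 12 arrays, 1 with trend and robust moderation and 1 with the dyad group as a replicate block (Cdh8 each time; adjusted p = 0.025, 0.0458 and 0.0495), and leaving out 1 pool gave 0 to 2 (Cdh8 and Pcdhb4 without the third St-Vin pool). The CA1 stress average gave 1 with all 12 arrays (Cdh8, adjusted p = 0.0267). With the replicate block the CA1 interaction gave 1 (Cdh8) and the CA1 lineage difference with stress gave 2, Cdh6 at 0.63 (adjusted p = 0.0332) and Pcdh20 at -0.45 (adjusted p = 0.0315), which rest on 2 measured pairs whose lineages were scanned on different days; the block changed no other call of a lineage or stress comparison, and the cause was not tested. Cdh19 in CRTX against the other areas lost its call under 5 alternatives, at -0.125 without the pool as a block (adjusted p = 0.0521), -0.128 without choroid-rich arrays (0.0699), -0.143 in non-stressed pools (0.102), -0.153 in stressed pools (0.0955) and -0.134 without the first NSt-Con pool (0.0517). Each member has 1 probe set, so the alternative of another probe set could not be run.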
